A study of Mus musculus with 23 samples.

Results

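The 9 genes described here encode elongation factors and other proteins whose mRNAs have been reported to carry a terminal oligopyrimidine (TOP) tract and which are not ribosomal proteins. They were taken from a list and not ranked by their values, but the list was chosen with earlier results of these data known. They were 9 of the 22350 genes to which reads were assigned. They comprise *Eef1a1*, *Eef1b2*, *Eef1d*, *Eef1g* and *Eef2*, which encode translation elongation factors, together with *Tpt1*, *Pabpc1*, *Npm1* and *Hnrnpa1*. All 9 passed the filter on low counts in every comparison. In GENCODE vM21 on mm10, the genes on which the results turn lie at chr9:78478449-78489151 (*Eef1a1*, minus strand), chr19:8967041-8978479 (*Eef1g*, plus strand), chr10:81176631-81182498 (*Eef2*, plus strand), chr14:75845093-75848525 (*Tpt1*, plus strand) and chr11:33152287-33163206 (*Npm1*, minus strand).

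A TOP mRNA starts with a cytosine followed by a run of pyrimidines, and its translation depends strongly on mTORC1, the growth-regulating kinase complex that contains Raptor. When mTORC1 is inactive, the binding protein LARP1 holds the cap and the adjacent pyrimidines of TOP mRNAs, and these mRNAs leave the polysomes while often remaining stable. Ribosomal protein mRNAs form the bulk of the class, so changes in TOP translation set the capacity of a cell to make ribosomes and to elongate proteins, which is of particular interest in the rapidly renewing intestinal epithelium.

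RNA-seq and Ribo-seq were carried out on mouse intestinal organoids, which are epithelial cultures grown from crypts, and Ribo-seq was carried out on intestines of adult C57BL/6 mice. For RNA-seq, wild type (WT) organoids were VillinCre.ERT2.RPL22.HA and *Rptor* fl/fl organoids were VillinCre.ERT2.Rptor.fl/fl, and each genotype had 2 lines whose 2 technical libraries were summed. Stem cell enriched (SCe) organoids were WT organoids cultured with 10 µM CHIR 99021, which activates WNT signalling, and 1.5 mM valproic acid, with 3 libraries. For Ribo-seq, 3 libraries of VillinCre.ERT2.Rptor.fl/fl.RPL22.HA organoids were compared with 3 of SCe organoids, so no WT organoids without SCe treatment entered the footprint comparison. In mice, ribosomes were collected from Lgr5Cre.ERT2.RPL22.HA animals, taken as WT, and from *Rptor*-deleted animals, which were Lgr5Cre.ERT2.Rptor.fl/fl.RPL22.HA, with 3 libraries each. In these models Cre activity starts after tamoxifen, in the epithelium with the Villin promoter and in *Lgr5*-expressing stem cells with the Lgr5 promoter, and Cre also switches on the HA tag on the ribosomal protein RPL22 by which ribosomes were pulled down. The labels call every group except SCe untreated, whereas the methods of the study describe tamoxifen induction. *Rptor* fl/fl organoids for RNA-seq did not carry the tag, whereas those for Ribo-seq did. WT and SCe organoids carried it, so in RNA-seq comparisons of *Rptor* fl/fl organoids the deletion and the tag cannot be told apart. The labels do not say whether numbered organoid lines or libraries came from separate animals, and p-values therefore measure only the spread between these samples.

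Counts per unit ranged from 27439459 to 67598878 in RNA-seq, from 1106178 to 8257457 in organoid Ribo-seq and from 772077 to 8238388 in mouse Ribo-seq. Levels are given as CPM, counts scaled to a common library size. *Rptor* mRNA reached 51.5 and 47.9 in WT and 14.8 and 15.5 in *Rptor* fl/fl lines, a difference of −1.71 on the log2 scale (adjusted p = 0.00516, edgeR). *Rptor* footprints were at 17.3, 18.7 and 16 CPM in the organoid libraries labelled *Rptor* fl/fl and at 15.2, 41.9 and 21 in SCe organoids, which overlapped (−0.53, adjusted p = 0.318, edgeR). In mice they were at 32.6, 34.4 and 36.9 CPM in the libraries labelled *Rptor* fl/fl and at 41.7, 39.7 and 44.7 in WT (−0.28, adjusted p = 0.150, edgeR). Organoids expressed epithelial markers, and smooth muscle and stromal markers together stayed under 1 CPM in WT and *Rptor* fl/fl RNA-seq. The stem cell pull-down from mice also held enterocyte markers at 26151 to 29299 CPM in sum, immune markers at 3469.8 to 3842 and smooth muscle markers at 1114 to 1315, against 348 to 579 for stem cell markers. *Lgr5*, a stem cell marker, was at 197 to 215 CPM in WT, 44.4 to 73.9 in *Rptor* fl/fl and 219 to 337 in SCe RNA-seq, and at 206 to 212 in *Rptor* fl/fl and 378 to 639.7 in SCe footprints. *Olfm4*, another, was at 2864 to 4433 CPM in WT, 521 to 1681 in *Rptor* fl/fl and 42.2 to 135 in SCe RNA-seq, and at 4322 to 4675 in *Rptor* fl/fl and 416 to 1160 in SCe footprints. Levels of mRNA and of footprints are on different scales, and whether the cultures of the 2 assays differed in these markers was not tested. SCe footprint library 1 stood apart, with ribosomal proteins taking 13.4% of its counts against 6.62% to 7.76% in the other 5 organoid footprint libraries. The 3 SCe RNA-seq libraries were also unlike each other. Their enterocyte markers summed to 229 CPM at the lowest, 5617 at the median and 6475 at the highest, and Paneth cell markers to 363, 2484 and 3045. Counts were lowest in SCe RNA-seq library 1, at 27439459.

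To show what the annotated starts of these genes look like, the 30 bases from 5 before to 25 after the first base of the RefSeq transcript start are given for the 5 genes with an entry in the RefSeq promoter table, on the strand of the gene (GRCm38.p6, mm10). The search covered that strand only, overlapping matches were joined, and capitals mark a C followed by at least 4 C or T.
Eef1a1 (chr9:78481700-78481729, minus strand): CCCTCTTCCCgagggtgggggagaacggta
Eef1b2 (chr1:63176826-63176855, plus strand): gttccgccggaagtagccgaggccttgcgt
Eef2 (chr10:81176626-81176655, plus strand): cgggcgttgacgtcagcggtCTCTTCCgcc
Tpt1 (chr14:75845251-75845280, plus strand): acgacagttccgggggagccgcggacggtg
Hnrnpa1 (chr15:103240392-103240421, plus strand): gaggaggcgggataaaagggcgagcagaag

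*Eef1a1* and *Eef2* held such a run in this window, or 2 of 5, and in neither did it begin at the annotated first base. For comparison, the run occurred in the same window of 34.6% of 32851 promoters and in 46 of 71 promoters of ribosomal protein genes (64.8%). It began exactly at the annotated start in 2.51% of all promoters and in 14 of 71 of ribosomal protein genes (19.7%). *Eef1d*, *Eef1g*, *Pabpc1* and *Npm1* are named only. The *Eef1a1* run began in the 5 bases before the annotated start, so part of it lay outside the annotated transcript. A run that is present or missing says only whether these letters are in this window of the annotation. Start sites were not measured here, and RefSeq and GENCODE starts can differ. The *Hnrnpa1* window, for instance, ended at 103240421, before the GENCODE start of that gene at 103240432.

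The 9 mRNAs together were abundant. They took 2.12% and 2.04% of the RNA-seq counts in the WT lines, 2.70% and 2.54% in the *Rptor* fl/fl lines and 2.10%, 1.98% and 1.91% in SCe organoids. Both *Rptor* fl/fl lines therefore lay above all 5 other RNA-seq samples. Among footprints they took 1.67%, 1.85% and 1.83% in organoids labelled *Rptor* fl/fl and 1.59%, 1.78% and 2.40% in SCe organoids, and these ranges overlapped. In mice the share was 0.719%, 0.703% and 0.745% in WT and 0.648%, 0.581% and 0.606% in *Rptor* fl/fl, without overlap. Of this, *Eef1a1* took 0.349%, 0.347% and 0.363% in WT and 0.323%, 0.272% and 0.288% in *Rptor* fl/fl mice. Shares in organoids and mice were counted on different reference sequences and were not tested against each other.

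**Figure D1:**
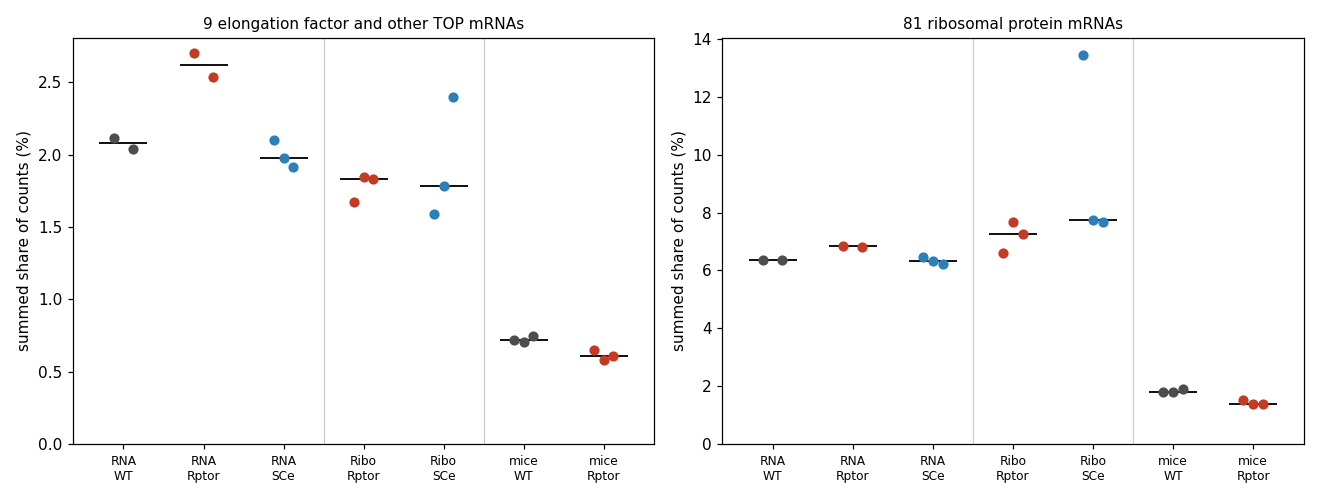
Summed share of all counts (%, y axis) taken by the 9 mRNAs (left) and by 81 ribosomal protein mRNAs (right) in each organoid line or library, by assay and group, with bars at the median of a group. The 9 mRNAs took the highest share in RNA-seq of *Rptor* fl/fl organoids (2.54% and 2.70%) and lower shares in *Rptor* fl/fl than in WT mice, and SCe footprint library 1 had the highest ribosomal protein share (13.4%).

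Levels of different genes were compared as CPM per kilobase of the sequence counted. *Eef1a1* was first in all 7 groups, at 7254 ± 149.9 CPM per kilobase (SD, n = 2) in WT RNA-seq, where it ranked 7 among all genes. In WT RNA-seq it was followed by *Tpt1* at 1605 ± 93.1, *Eef2* at 1183 ± 46.7, *Eef1b2* at 932 ± 59.2, *Npm1* at 805 ± 40.7, *Eef1g* at 601 ± 129, *Hnrnpa1* at 432 ± 7.32, *Pabpc1* at 418 ± 15.4 and *Eef1d* at 183 ± 14.4. Only the neighbours *Hnrnpa1* and *Pabpc1* overlapped between lines in that order. The first 5 places held the same genes in *Rptor* fl/fl and SCe RNA-seq.

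Footprints ranked the genes differently. In *Rptor* fl/fl organoids *Npm1* was second at 2003 ± 43.1 CPM per kilobase (SD, n = 3) and *Hnrnpa1* the third at 1138 ± 30.9, while *Tpt1*, *Eef1b2* and *Eef2* followed at 1024 ± 84.9, 928 ± 93.4 and 928 ± 31.3, with overlapping values. In SCe organoids *Npm1*, *Tpt1*, *Eef2*, *Hnrnpa1* and *Eef1b2* took the second to the sixth place, and each overlapped with its neighbour among them. In WT mice *Eef2* was second at 699.7 ± 32 and *Tpt1* the third at 453 ± 27.1, and *Eef1a1* was at 2240.3 ± 49.7. The order of these 3 was the same in *Rptor* fl/fl mice.

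**Figure D2:**
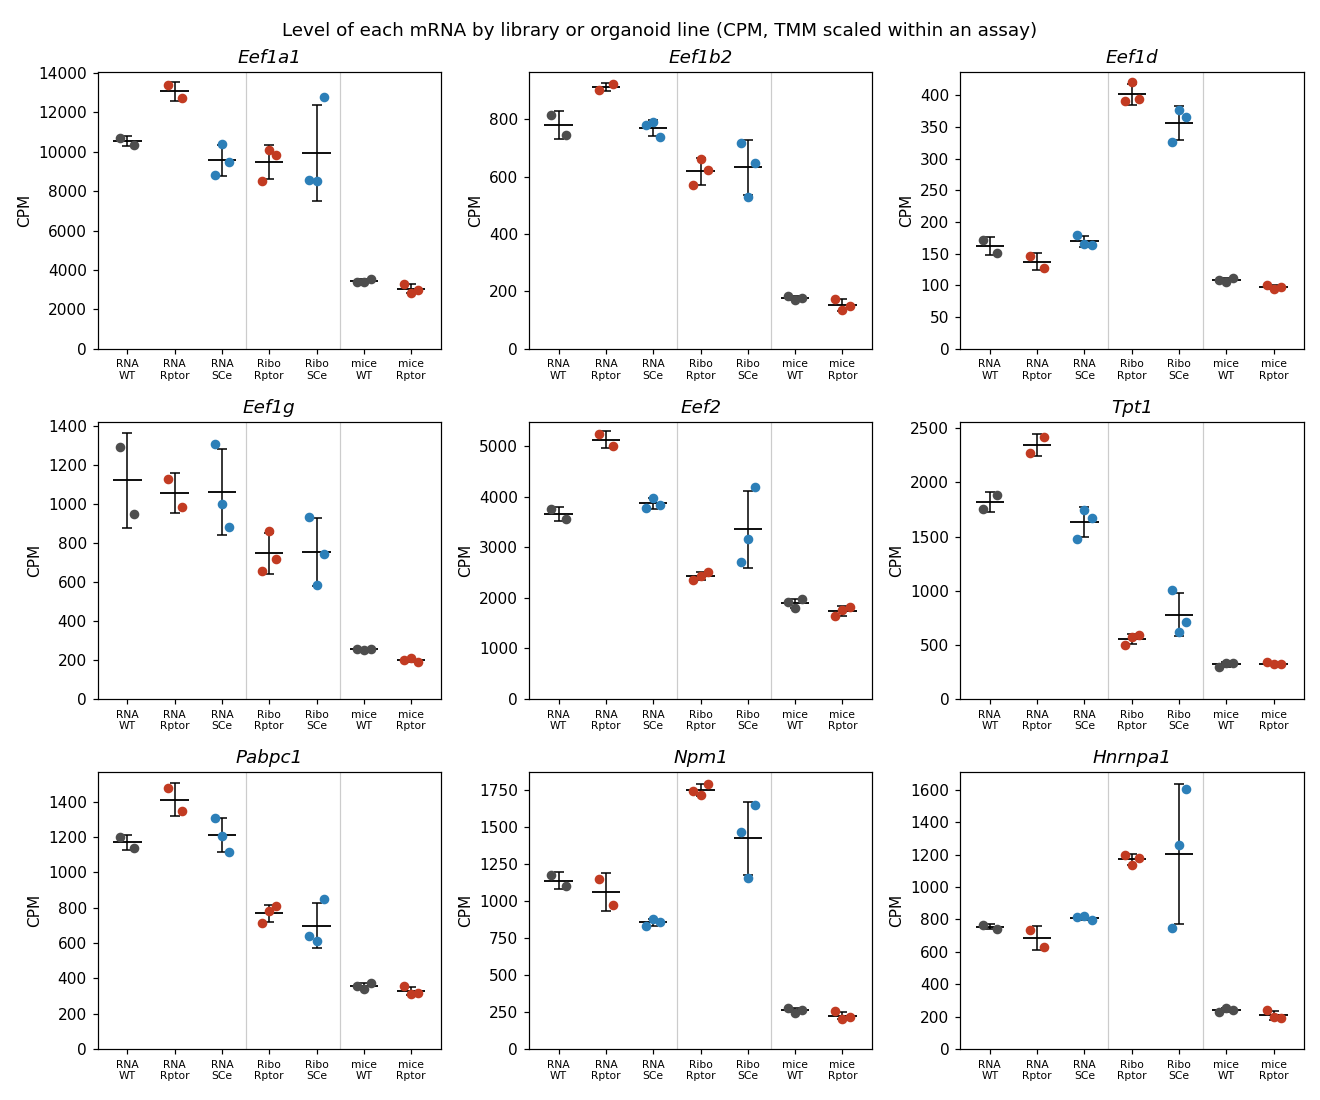
Level of each gene (CPM with TMM scaling within an assay, y axis from 0) in RNA-seq of organoids, Ribo-seq of organoids and Ribo-seq of mice. Points are organoid lines or libraries, and horizontal bars and error bars are the mean and SD of each group. *Eef2* and *Tpt1* were highest in *Rptor* fl/fl among RNA-seq groups and lowest in *Rptor* fl/fl among organoid footprints.

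The first comparison asked how mRNA levels of the 9 genes differed between *Rptor* fl/fl and WT organoids, which also differed in the tag. One gene, *Eef2*, was called higher and 0 were called lower at an adjusted p of 0.05 (edgeR quasi-likelihood test), against 11.6% and 11.0% of the 14131 genes tested. At an unadjusted p under 0.05 there were 4 of 9, against 39.9% of all genes. DESeq2 called 5 higher and 0 lower, against 13.4% and 12.9%. The median log2 difference over the 9 was 0.23, against −0.005 over all genes tested. In 5 genes both *Rptor* fl/fl values lay above both WT values, which held for 34.3% of all genes. In *Eef1d* and *Hnrnpa1*, or 2 genes, both lay below, which held for 34.8%.

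*Eef2*, the GTPase that moves the ribosome along the mRNA by a codon, had levels of 3758 and 3553 CPM in WT and of 5245 and 5012 CPM in *Rptor* fl/fl lines. Both *Rptor* fl/fl lines were higher than both WT lines, and the log2 difference was 0.49 ± 0.11 (SE, adjusted p = 0.0382, edgeR). The call was lost without WT line 1, WT line 2 or *Rptor* fl/fl line 1, with adjusted p-values of 0.167, 0.158 and 0.0784 and differences of 0.53, 0.45 and 0.46. *Tpt1*, which encodes the growth-associated protein TCTP, was at 1751 and 1883 CPM in WT and 2273 and 2420.2 in *Rptor* fl/fl. These also did not overlap, but the difference of 0.37 ± 0.099 missed the threshold (adjusted p = 0.0577, edgeR).

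*Eef1a1*, which encodes the factor that delivers aminoacyl-tRNA to the ribosome, was at 10725 and 10369 CPM in WT and 13389 and 12738 in *Rptor* fl/fl (0.31 ± 0.13, adjusted p = 0.148, edgeR). The subunits of its nucleotide exchange complex did not move in a single direction. *Eef1b2* was at 814 and 745 CPM in WT and 903 and 922 in *Rptor* fl/fl (0.23, adjusted p = 0.117, edgeR). *Eef1d* was at 172 and 152 against 146 and 128 (−0.24, adjusted p = 0.150, edgeR), and *Eef1g* at 1290.2 and 949 against 1127 and 985 (−0.08, adjusted p = 0.748, edgeR). Only *Eef1g* of these subunits overlapped between the genotypes.

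The RNA-binding and nucleolar members differed by less than the threshold as well. *Pabpc1*, the cytoplasmic poly(A)-binding protein, was at 1198 and 1140.0 CPM in WT and 1479 and 1344 in *Rptor* fl/fl (0.27, adjusted p = 0.101, edgeR). *Npm1*, a nucleolar chaperone used in ribosome assembly, was at 1177 and 1099.7 against 1151 and 970.0 and overlapped (−0.10, adjusted p = 0.550, edgeR). *Hnrnpa1*, a splicing regulator, was at 765 and 743 against 738 and 632 (−0.14, adjusted p = 0.367, edgeR). Fewer cells of a type and less RNA per cell cannot be told apart in such bulk samples, and several marker lists moved with the genotype. Stem cell markers summed to 3561 to 5127 CPM in WT and 803 to 2042 in *Rptor* fl/fl organoids, and Paneth cell markers to 3935 to 4723 and 709 to 1508. Goblet cell markers were higher, at 1423 to 1474 in WT and 2633 to 3671 in *Rptor* fl/fl, whereas enterocyte markers overlapped, at 5814 to 6361 and 5262 to 8088. The part of these cell types in the differences was not tested.

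SCe culture on its own was compared with WT culture to show how the stem cell enriched state differed at these genes. Of the 9, 0 were called higher and *Npm1* was called lower, against 22.4% and 19.9% of the 14925 genes tested, and DESeq2 called 1 higher and 1 lower, against 26.1% and 24.6%. At an unadjusted p under 0.05 there was 1 of 9, against 52.1% of all genes. The median log2 difference was 0.001, against 0.02 over all genes. *Npm1* was at 829.9, 878 and 858 CPM in SCe organoids, all below the WT lines at 1177 and 1099.7. Its difference was −0.39 ± 0.081 (adjusted p = 0.0170, edgeR). The call was lost without WT line 1, WT line 2, SCe library 2 or SCe library 3 (adjusted p = 0.114, 0.0771, 0.0508 and 0.0753, edgeR). The other 8 lay between −0.13 for *Tpt1* and 0.13 for *Hnrnpa1*, with adjusted p-values of 0.221 or more. Goblet cell markers summed to 231 to 408 CPM in SCe organoids and stem cell markers to 826 to 1606, both below WT. Among the stem cell markers, *Olfm4* was lower in SCe organoids, at 42.2 to 135 against 2864 to 4433 in WT. *Lgr5* went the other way, at 219 to 337 against 197 to 215. The part of these markers was not tested.

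*Rptor* fl/fl and SCe organoids were then compared, since the footprint libraries hold these 2 groups. The *Rptor* fl/fl lines are the same as in the comparison with WT, and the SCe libraries the same as in the comparison of SCe with WT. In RNA-seq, *Eef1a1*, *Eef2* and *Tpt1*, or 3 of 9, were called higher and 0 lower, against 21.0% and 21.8% of the 15103 genes tested. There were 6 of 9 with an unadjusted p under 0.05, against 52.5% of all genes, and DESeq2 called 5 higher and 2 lower, against 24.8% and 25.9%. The median was 0.25, against −0.01 over all genes. Both *Rptor* fl/fl lines lay above all SCe libraries in 6 genes and below them in 2, which held for 33.8% and 34.3% of all genes. Goblet cell markers, at 2633 to 3671 CPM in *Rptor* fl/fl and 231 to 408 in SCe organoids, moved with this comparison as well, and their part was not tested.

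*Tpt1* was at 1475, 1742 and 1676 CPM in SCe organoids, below both *Rptor* fl/fl lines, and differed by 0.53 ± 0.11 (adjusted p = 0.0178, edgeR). *Eef2* was at 3781, 3979.9 and 3836 in SCe organoids, also below both *Rptor* fl/fl lines (0.41 ± 0.098, adjusted p = 0.0245, edgeR). *Eef1a1* was at 8823, 10394 and 9488 in SCe organoids and again did not overlap (0.45 ± 0.13, adjusted p = 0.0379, edgeR). The *Tpt1* call was lost without either *Rptor* fl/fl line or SCe library 3, with adjusted p-values between 0.0714 and 0.101. The *Eef2* call was lost without either *Rptor* fl/fl line, SCe library 2 or SCe library 3 (0.0699 to 0.133), and the *Eef1a1* call without any single line or library (0.0602 to 0.177). With an offset for transcript length the *Eef1a1* call was lost as well (0.43, adjusted p = 0.0536, edgeR), which left 2 genes called higher. *Npm1*, at 0.31 ± 0.11, and *Eef1b2*, at 0.25 ± 0.084, lay higher in both *Rptor* fl/fl lines than in every SCe library but missed the threshold (adjusted p = 0.0674 and 0.0640, edgeR). *Eef1d* lay lower in both lines (−0.30 ± 0.095, adjusted p = 0.0528, edgeR). Without SCe library 1, *Eef1b2* and *Eef1d* passed the threshold, at 0.26 and −0.26 (adjusted p = 0.04998 and 0.0350, edgeR). That fit called 4582 of 14953 genes higher and 4519 lower, against 3165 and 3287 of 15103 with all libraries.

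**Figure D3:**
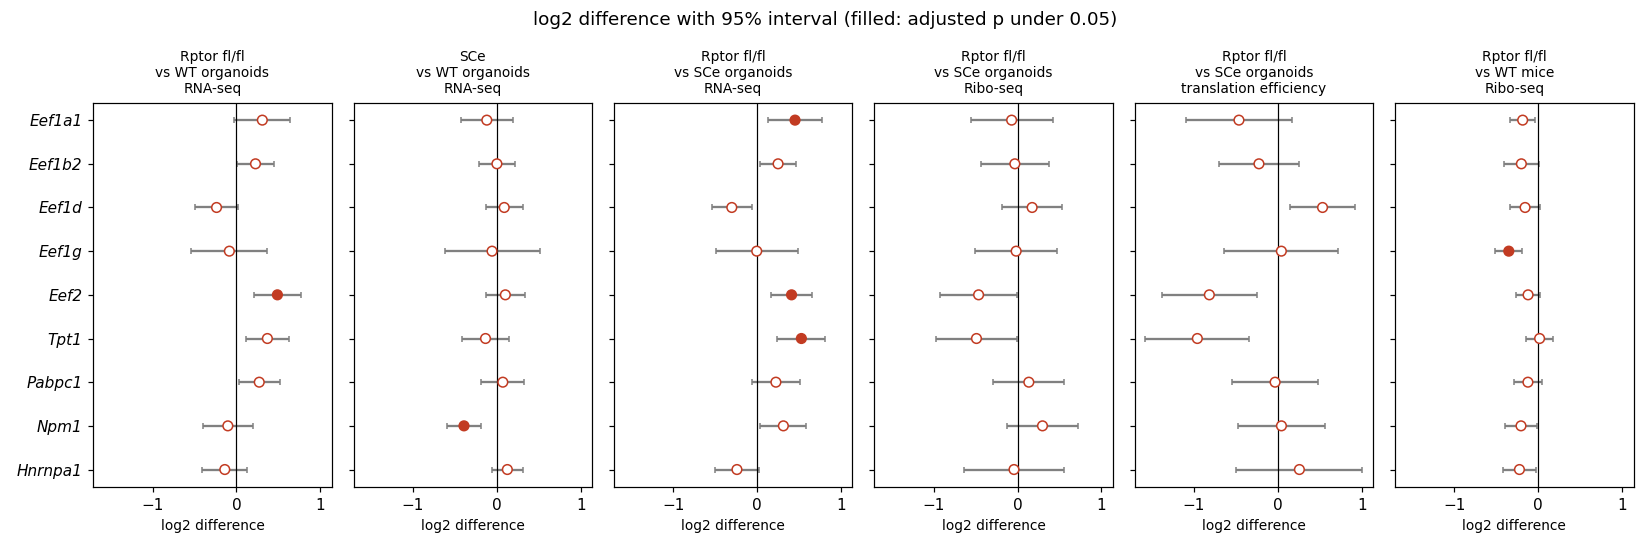
log2 difference of each gene (x axis) with its 95% interval in the 6 comparisons. Filled points have an adjusted p under 0.05 (edgeR). *Eef2* was filled in both RNA-seq comparisons that involve *Rptor* fl/fl organoids, no gene was filled in organoid footprints or in translation efficiency, and only *Eef1g* was filled in mice.

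Ribo-seq, which sequences the mRNA fragments protected by ribosomes, was used to ask whether ribosome occupancy of the same mRNAs followed their levels. Among organoid footprints, 0 of the 9 were called higher and 0 lower, against 6.63% and 9.84% of the 10817 genes tested (edgeR). At an unadjusted p under 0.05 there were 2 of 9, *Eef2* and *Tpt1*, against 32.2% of all genes, and DESeq2 called 0, against 8.64% higher and 12.1% lower. The median log2 difference was −0.03, against −0.02 over all genes. The *Rptor* fl/fl values lay above all SCe values in 2 genes and below them in 2, which held for 20.0% and 19.3% of all genes. Stem cell markers summed to 4997 to 5329 CPM in *Rptor* fl/fl and 1551 to 3050 in SCe footprints, and enterocyte markers to 6555 to 7143 and 812 to 2772. Among the stem cell markers, *Olfm4* was at 4322 to 4675 in *Rptor* fl/fl and 416 to 1160 in SCe footprints. *Lgr5* went the other way, at 206 to 212 and 378 to 639.7. The part of these markers in the differences was not tested.

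*Eef2* footprints were at 2353, 2430.3 and 2517 CPM in organoids labelled *Rptor* fl/fl and at 2707, 3167 and 4194 in SCe organoids. All 3 *Rptor* fl/fl values lay below all 3 SCe values, and the difference was −0.46 ± 0.20 (adjusted p = 0.153, edgeR). *Tpt1* footprints were at 498, 574 and 589 CPM against 1002, 620.2 and 709.5. They did not overlap either (−0.49 ± 0.21, adjusted p = 0.152, edgeR). Without SCe library 1, the library rich in ribosomal protein footprints, the *Eef2* difference was −0.60 and passed the threshold (adjusted p = 0.0123, edgeR), in a fit that called 10.4% of all genes higher and 13.4% lower. Without the same library the *Tpt1* difference shrank to −0.26 (adjusted p = 0.165, edgeR). The *Eef2* difference was −0.26 without SCe library 3 (adjusted p = 0.287, edgeR).

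*Eef1a1* footprints were at 8512, 10116 and 9821 CPM in *Rptor* fl/fl and 8568, 8539 and 12761 in SCe organoids, with full overlap (−0.07 ± 0.22, 95% interval −0.56 to 0.42, adjusted p = 0.855). Likewise, *Eef1b2* at 569, 663 and 624 overlapped with 719, 530.4 and 647 (−0.03, adjusted p = 0.927), and *Eef1g* at 658, 863 and 716 with 932, 584 and 744 (−0.02, adjusted p = 0.971). *Eef1d* was at 390.2, 421 and 394 CPM in *Rptor* fl/fl, above the SCe values of 326, 377 and 365 (0.17, adjusted p = 0.484).

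*Npm1* footprints were at 1742, 1716 and 1791 CPM in *Rptor* fl/fl, above 1464, 1157 and 1647 in SCe organoids (0.30, adjusted p = 0.307). *Pabpc1* was at 716, 779 and 809 against 639.7, 611 and 847 (0.13, adjusted p = 0.658), with overlap. *Hnrnpa1* was at 1200.0, 1136 and 1177 against 748, 1262 and 1606 (−0.04, adjusted p = 0.935), and the SCe libraries enclosed all *Rptor* fl/fl values. Ribosomal protein genes, the main class of TOP mRNAs, had negative footprint differences in 79 of 81 with a median of −0.45, and 0 were called, with 11 at an unadjusted p under 0.05. This difference rested on SCe library 1, without which 45 of 81 were negative, the median was −0.03, and 1 was called higher and 3 lower. The ribosomal protein share was 13.4% in that library and 7.76% and 7.66% in the other two SCe libraries, against 6.62% to 7.66% in *Rptor* fl/fl. For the 9 genes the median was 0.07 without SCe library 1 and 0.16 without SCe library 3.

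**Figure D4:**
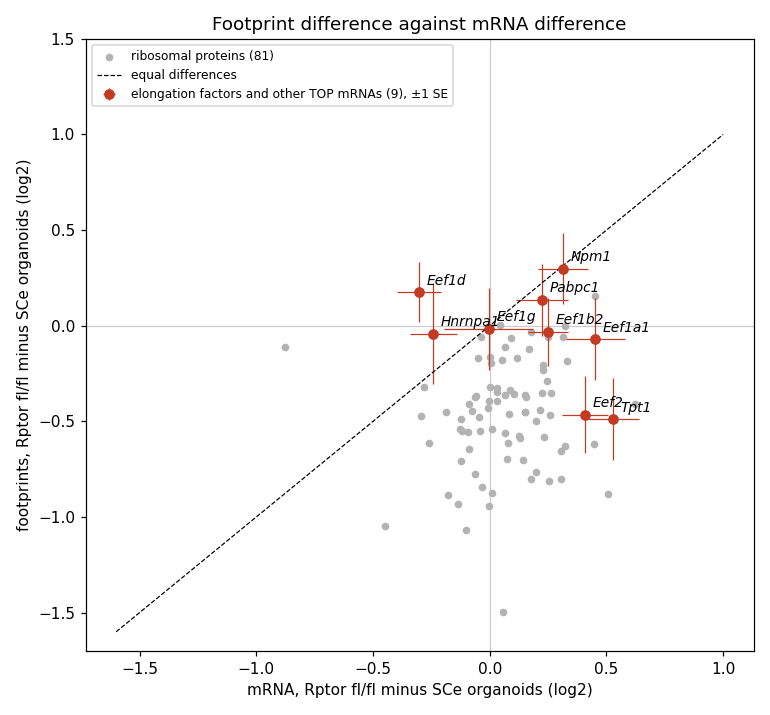
Footprint difference (y axis, log2) against mRNA difference (x axis, log2) between *Rptor* fl/fl and SCe organoids for the 9 genes, with bars of 1 SE, and for 81 ribosomal protein genes in grey. The dashed line marks equal differences. *Eef2* and *Tpt1* lay at positive mRNA and negative footprint differences, while *Npm1* lay on the line and *Eef1d* and *Hnrnpa1* above it.

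Translation efficiency, the footprint difference relative to the mRNA difference, was tested as the interaction of assay and group. Of the 9, 0 were called higher and 0 lower, against 1.12% and 1.81% of the 10747 genes tested. At an unadjusted p under 0.05 there were 3 of 9, against 20.3% of all genes, and DESeq2 called 1 higher and 2 lower, against 4.66% and 6.56%. *Tpt1* had a difference of −0.96 ± 0.28 (95% interval −1.58 to −0.34, unadjusted p = 0.00580, adjusted p = 0.0921, edgeR), which is 0.514-fold. *Eef2* had −0.82 ± 0.26 (95% interval −1.38 to −0.25, unadjusted p = 0.00873, adjusted p = 0.109, edgeR), or 0.568-fold. Because the *Rptor* fl/fl organoids of the 2 assays also differed in genotype, the tag being present only in those for Ribo-seq, assay and genotype cannot be told apart in this comparison. Over the 19 fits tried, *Tpt1* stayed between −1.09 and −0.74 with adjusted p from 0.00848 to 0.358, and *Eef2* between −0.95 and −0.62 with adjusted p from 0.00297 to 0.388. Both were called without SCe footprint library 1 (adjusted p = 0.0403 for *Tpt1* and 0.020 for *Eef2*, edgeR), where 3.59% of all genes were called higher and 4.92% lower.

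*Eef1d* differed in the opposite direction, by 0.53 ± 0.18 (unadjusted p = 0.0116, adjusted p = 0.127, edgeR). Its organoid footprints and its RNA-seq reads were assigned to largely different transcripts. Reads and footprints were also split differently between transcripts for *Eef1b2* and *Hnrnpa1*. *Eef1a1* was at −0.46 ± 0.29 with an interval of −1.10 to 0.17 that includes both no difference and a drop as large as that of *Tpt1*. The remaining 5 lay between −0.23 for *Eef1b2* and 0.26 for *Hnrnpa1*, with adjusted p-values of 0.610 or more. The median over the 9 was −0.03, the same as over all genes, whereas the ribosomal protein genes had a median of −0.45 with 77 of 81 negative and 0 called. Without SCe footprint library 1 the ribosomal protein median was −0.07, with 51 of 81 negative and 1 called higher.

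Footprint density per mRNA also differed among the 9 within a group. It was taken as the ratio of the group means of footprints and mRNA, both per kilobase, and ranked among the 10747 genes. In SCe organoids 6 genes lay between the 21.5th percentile for *Pabpc1* and the 26.3rd for *Eef1b2*, while *Eef1d*, *Hnrnpa1* and *Npm1* lay at the 67.3rd, 71.9th and 74.3rd. In *Rptor* fl/fl organoids *Tpt1* was at percentile 9.01 and *Eef2* at 11.3, against 21.6 and 23.9 in SCe organoids. *Eef1d* was at 84.0 in *Rptor* fl/fl, and *Npm1* at 74.6 was close to its SCe rank. The median ribosomal protein gene was at 65.5 in SCe and 48.5 in *Rptor* fl/fl organoids. Without SCe footprint library 1 the SCe percentiles were 50.4 for the median ribosomal protein gene, 16.6 for *Tpt1* and 27.2 for *Eef2*. These ranks are descriptions from group means and carry no test. For *Eef1d* the footprints and reads set against each other were assigned to largely different transcripts. They were also split differently for other genes, among them *Eef1b2* and *Hnrnpa1*. Eef1b2-205 held 41.5% of reads in *Rptor* fl/fl and 39.9% in SCe organoids, but 0% of footprints in both. Hnrnpa1-201 held 32.8% and 44.1% of reads, and 14.5% and 20.4% of footprints.

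**Figure D5:**
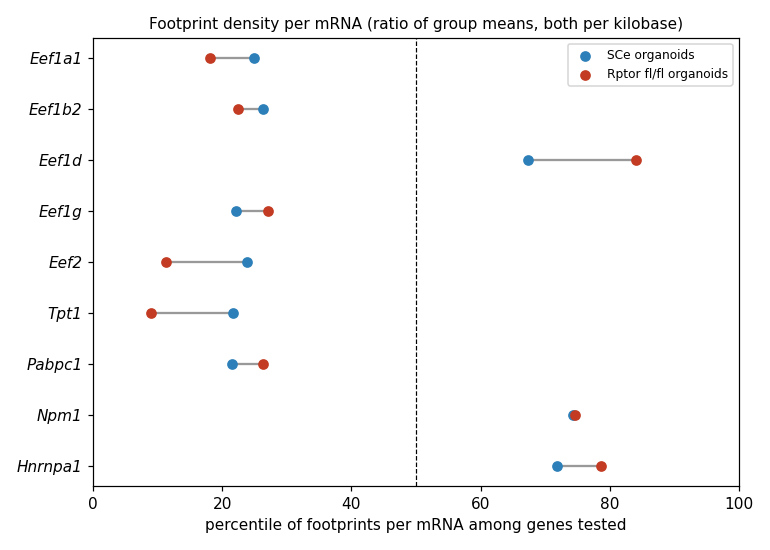
Percentile of footprint density per mRNA (x axis, among 10747 genes) for each gene in SCe (blue) and *Rptor* fl/fl (red) organoids, with the dashed line at the median gene. Of the genes, 6 lay below percentile 30 in both groups and 3 above 60, and *Tpt1* and *Eef2* had the lowest ranks, in *Rptor* fl/fl.

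Footprints on the 5′ region upstream of the coding sequence were counted apart in organoids. They made up 0.902%, 2.15% and 1.79% of *Eef1a1* footprints in *Rptor* fl/fl organoids and 5.41%, 2.24% and 0.971% in SCe organoids, with overlap. For *Eef2* the shares were 0.945%, 1.63% and 1.16% against 2.84%, 1.79% and 0.771%, again with overlap. *Pabpc1*, whose 5′ region is known for binding its own protein, had the highest 5′ shares of the 9, at 5.59%, 6.73% and 4.66% in *Rptor* fl/fl and 7.24%, 7.63% and 4.74% in SCe organoids. Over all genes the 5′ shares of these libraries were 3.971%, 4.254% and 3.815% in *Rptor* fl/fl and 6.985%, 5.421% and 2.97% in SCe organoids. What sets the *Pabpc1* share was not tested.

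The last comparison asked how footprints on the 9 mRNAs differed when *Rptor* was deleted in *Lgr5*-expressing cells of mice. *Eef1g* was called lower and 0 were called higher, against 5.97% and 7.47% of the 11515 genes tested (edgeR). All but *Tpt1* had a negative difference, and the median was −0.19, against −0.02 over all genes. At an unadjusted p under 0.05 there were 4 of 9, against 26.8% of all genes. DESeq2 called 0 higher and 1 lower, against 5.49% and 3.61%. In 3 genes every *Rptor* fl/fl value lay below every WT value and in 0 above, which held for 15.5% and 15.6% of all genes. Leaving out *Rptor* fl/fl library 1 raised the count called lower from 1 to 5 and that called higher stayed at 0, against 7.25% and 9.24% of all genes in that fit. Leaving out any other library left *Eef1g* as the only gene called.

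*Eef1g*, the subunit that anchors the exchange complex, was at 254, 249.7 and 257 CPM in WT and 200.0, 208 and 190.2 in *Rptor* fl/fl mice. The groups did not overlap, and the difference was −0.35 ± 0.075 (0.784-fold, adjusted p = 0.00568, edgeR), with an adjusted p of 0.0414 or less in all 12 fits tried, those that leave out 1 library included. *Eef1a1* was at 3407, 3405 and 3538 in WT, above the *Rptor* fl/fl values of 3280.4, 2828 and 2994 (−0.19 ± 0.068, adjusted p = 0.0876, edgeR). *Eef1d* was at 109, 105 and 112 in WT and at 101, 94.4 and 97.3 in *Rptor* fl/fl, again without overlap (−0.16, adjusted p = 0.261, edgeR). *Eef1b2* was at 183, 169.8 and 176 against 174, 134 and 151, where library 1 of *Rptor* fl/fl reached into the WT range (−0.20, adjusted p = 0.202, edgeR).

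*Eef2* and *Tpt1*, the pair with the lowest footprint densities in *Rptor* fl/fl organoids, were not the most reduced in mice. *Eef2* was at 1910.0, 1798 and 1968 CPM in WT and 1641, 1753 and 1825 in *Rptor* fl/fl, with a slight overlap (−0.12 ± 0.068, adjusted p = 0.280, edgeR). *Tpt1* was at 293, 334 and 329 against 337, 318 and 320.2 (0.02 ± 0.075, 95% interval −0.14 to 0.18, adjusted p = 0.934, edgeR). The organoid and mouse comparisons had different controls, and whether their differences for a gene are unequal was not tested.

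*Npm1* footprints were at 276, 247 and 264 CPM in WT and 255, 204 and 219.7 in *Rptor* fl/fl mice (−0.21, adjusted p = 0.158, edgeR). *Hnrnpa1* was at 231, 256 and 239 against 239, 197 and 190.2 (−0.22, adjusted p = 0.137, edgeR). *Pabpc1* was at 356, 339 and 376 against 357, 311 and 319 (−0.12, adjusted p = 0.348, edgeR). In these 3 genes *Rptor* fl/fl library 1 lay within the WT range and the other two *Rptor* fl/fl libraries lay below it. Without that library *Eef1a1*, *Eef1b2*, *Npm1* and *Hnrnpa1* joined *Eef1g* past the threshold, at −0.24, −0.29, −0.29 and −0.32 (adjusted p = 0.00386, 0.0270, 0.0173 and 0.00723, edgeR). Of the 12 fits tried, *Eef1b2*, *Npm1* and *Hnrnpa1* passed the threshold in only 1, and *Eef1a1* in 2. Ribosomal protein genes were negative in 77 of 80 with a median of −0.26, and 36 were called lower, or 16 to 56 with 1 library left out. Several marker lists moved with the genotype without overlap. Paneth cell markers summed to 6582 to 7235 CPM in WT and 3487 to 4767 in *Rptor* fl/fl mice, stem cell markers to 552 to 579 and 348 to 531, and proliferation markers to 681 to 729.6 and 524 to 633. Among the stem cell markers, *Olfm4* was at 456 to 482 in WT and 280 to 332 in *Rptor* fl/fl mice. *Lgr5* itself was low and overlapped, at 7.76 to 11.4 in WT and 6.32 to 45.8 in *Rptor* fl/fl mice. Goblet cell markers were higher in *Rptor* fl/fl, at 24746 to 27747 against 21161 to 21557, as were enterocyte markers, at 28179 to 29299 against 26151 to 26890, and stromal markers, at 696 to 820.5 against 560.2 to 593. Their part in these differences was not tested.

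Other genes of the elongation and TOP pathways were examined from fixed lists. Among 13 genes that modify eEF2 or eEF1A, *Eef2k*, the kinase that inhibits eEF2 and is itself restrained by mTORC1 signalling, was higher in *Rptor* fl/fl than in WT RNA-seq (0.39, adjusted p = 0.0257, edgeR). It was also higher than in SCe organoids in RNA-seq (1.24, adjusted p = 0.00123) and in footprints (0.91, adjusted p = 0.0236), while its translation efficiency was at −0.28 (adjusted p = 0.531) and its footprints in mice at −0.15 (adjusted p = 0.586). In SCe relative to WT organoids *Eef2k* was lower (−0.82, adjusted p = 0.00223). *Dph3*, needed for the diphthamide modification of eEF2, fell by 0.51 in *Rptor* fl/fl relative to WT RNA-seq (adjusted p = 0.0189, edgeR). Of this list 1 gene was called higher and 1 lower against WT in RNA-seq, 1 higher and 3 lower against SCe in RNA-seq, 1 higher and 2 lower among the 12 tested in organoid footprints, and 0 in translation efficiency and in mice. Over all genes, 11.6% were called higher and 11.0% lower against WT in RNA-seq, and 21.0% and 21.8% against SCe. The shares were 6.63% and 9.84% in organoid footprints, 1.12% and 1.81% in translation efficiency, and 7.47% and 5.97% in mice.

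Among 17 other elongation and termination genes, 1 of the 16 tested was called higher and 0 lower against WT in RNA-seq. Against SCe, 1 was higher and 5 lower in RNA-seq, 0 higher and 1 lower in footprints, and in mice 0 higher and 2 lower of 15. The shares over all genes were 11.6% and 11.0%, 21.0% and 21.8%, 6.63% and 9.84%, and 7.47% and 5.97% in that order. *Eif5a2*, a paralog of the elongation factor eIF5A, was higher in SCe than in WT organoids (3.15) and lower in *Rptor* fl/fl than in SCe organoids both in RNA-seq (−2.98) and in footprints (−3.24, adjusted p = 0.0361, edgeR). *Vars*, the valyl-tRNA synthetase that associates with the eEF1 complex, had lower footprints in *Rptor* fl/fl mice (−0.47, adjusted p = 0.00193, edgeR). The paralog *Eef1a2* passed the count filter in none of the RNA-seq comparisons.

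The 18 other reported TOP mRNAs were 1 higher and 0 lower against WT in RNA-seq, 2 higher and 2 lower against SCe in RNA-seq, 0 higher and 1 lower in organoid footprints, 0 in translation efficiency, and 1 higher and 3 lower in mice. Over all genes the shares were 11.6% and 11.0%, 21.0% and 21.8%, 6.63% and 9.84%, 1.12% and 1.81%, and 7.47% and 5.97% in that order. Their median footprint difference in mice was −0.09. *Ncl*, encoding nucleolin, and *Impdh2*, a guanine nucleotide synthesis enzyme, had lower footprints in *Rptor* fl/fl mice (−0.56, adjusted p = 1.98e-04, and −0.51, adjusted p = 0.00496, edgeR). *Vim*, the intermediate filament vimentin, was higher in SCe than in WT organoids by 5.23 and lower in *Rptor* fl/fl than in SCe organoids by −5.40 in RNA-seq and −6.11 in footprints.

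Of the paralogs, partners and TOP mRNA binding proteins, *Larp1* had lower footprints in *Rptor* fl/fl mice (−0.36, adjusted p = 0.0417, edgeR) and was at 0.12 in *Rptor* fl/fl relative to WT RNA-seq (adjusted p = 0.308). *Pabpc4*, a paralog of *Pabpc1*, was higher than in WT organoids both in *Rptor* fl/fl (0.75, adjusted p = 0.0186) and in SCe RNA-seq (0.79, adjusted p = 0.00189, edgeR). *Eif4ebp1*, a translational repressor and mTORC1 substrate, was lower in *Rptor* fl/fl than in WT RNA-seq (−0.87, adjusted p = 0.0193, edgeR). *Paip2b*, which encodes an inhibitor of poly(A)-binding protein, was the only gene of these lists called in translation efficiency (0.91, adjusted p = 0.0437, edgeR). In this list 1 was called higher and 3 lower against WT in RNA-seq, and 0 higher and 2 lower in mice, both of 18 tested. The shares over all genes were 11.6% and 11.0% against WT, and 7.47% and 5.97% in mice.

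Several of the 9 genes were counted over more than 1 transcript. *Eef1g* and *Eef2* had a single transcript. The main *Eef1a1* transcript, Eef1a1-201, held 81.4% ± 0.31 of its reads in WT RNA-seq (SD, n = 2) and 98.8% ± 1.2 of its footprints in *Rptor* fl/fl organoids (SD, n = 3). Of *Eef1b2* reads in WT RNA-seq, 41.4% ± 0.57 were assigned to Eef1b2-205, which is annotated as a nonsense-mediated decay transcript. That transcript held 0% of *Eef1b2* footprints in organoids. *Hnrnpa1* reads assigned to Hnrnpa1-202 made up 25.2% ± 0.98 in WT, 27.0% ± 2.4 in *Rptor* fl/fl and 11.6% ± 4.6 in SCe RNA-seq. Footprints of *Tpt1* assigned to Tpt1-205 made up 20.3% ± 3.1 in *Rptor* fl/fl and 5.46% ± 5.6 in SCe organoids. For *Eef1d*, Eef1d-201, Eef1d-207, Eef1d-212 and Eef1d-215 held RNA-seq reads but 0% of organoid footprints. Of these, Eef1d-207 held 32.4% ± 1.9 of reads in *Rptor* fl/fl and 24.5% ± 5.9 in SCe RNA-seq. Eef1d-217 held 16.9% ± 4.5 of *Eef1d* footprints in *Rptor* fl/fl and 13.5% ± 14 in SCe organoids. Short footprints shared between transcripts are split by estimation, so these shares are uncertain. *Eef1b2* overlaps the opposite-strand gene *Ndufs1* by 9 bases and *Eef1d* overlaps *Naprt* on its own strand by 277 bases.

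The genes whose pattern was most like the mean of the 9 were found among 6916 genes with at least 10 CPM on average in each of the 3 assays. Likeness was the mean of the Pearson correlations over 7 RNA-seq, 6 organoid footprint and 6 mouse footprint samples. The 5 highest were *Rpl4* (0.87), *Osbpl3* (0.80), *Tent2* (0.79), *Ankrd12* (0.78) and *Tmem164* (0.77). Within the 9, *Eef1a1* was closest to their mean (0.93), to which its own level contributes, and *Eef1d* was farthest (0.16). The 9 therefore did not share a single pattern across samples, although in mice 7 of the 9 had correlations from 0.84 to 0.99 with their mean. Each of the 9 is part of that mean, over only 6 mouse samples, so these values are raised in part by construction. How many of all genes reached such values was not counted.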

How the data were processed

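RNA-seq libraries of organoids and Ribo-seq libraries of organoids and mice were quantified by the authors with Salmon 1.1.0 on sequences of GENCODE vM21, after adapter trimming of footprints with cutadapt 1.18. The deposited values used were estimated counts per sequence (NumReads), which were not normalised. TPM values deposited beside them, and the authors' table of translation efficiency, which holds their own ratios, fold changes and p-values, were not used. The mouse reference also covered 5′ regions. Entries for 5′ regions of organoids were kept apart.

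Counts were summed per gene, rounded, and summed over technical libraries. In R 4.3.3, edgeR 4.0.16 was applied with filterByExpr, TMM and the quasi-likelihood test, Benjamini-Hochberg adjusted over all genes tested at 0.05, in 6 comparisons. For translation efficiency the assay-by-group interaction was tested, with TMM within an assay. CPM was the count divided by the TMM-scaled library size. Fits were tested on simulated data. Replicate numbers, DESeq2 1.42.0, no count filter, library totals, an offset for length, technical libraries as replicates, added 5′ entries and leaving out each line or library were alternatives.

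All 9 genes are reported. From each other list up to 4 genes with the smallest adjusted p per comparison could be named, and the similar genes were the 5 highest by correlation. *Lgr5*, *Olfm4*, *Eef1a2* and the lists' remaining values in other comparisons were added after their values were seen, as were the ribosomal protein values and footprint densities with a library left out. The members and lists were chosen with earlier results of these data known.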

Additional observations from a re-analysis of the deposited data

Results flagged for a closer look

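*Hnrnpa1* in WT RNA-seq line 1, technical library 2, was at 767 CPM by library total, far from the other 3 WT libraries at 732 to 735. In 18 sets of 4 values examined, each 1 gene in 1 genotype, 1 such library was found. For 4 independent values chance gives about 1 in 20. That rate does not hold here, as the values came from technical libraries of 2 lines and all genes shared the libraries. Both technical libraries of a line were summed in every test.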

How the results depend on the processing

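The labels do not state that replicate numbers pair samples. Correlations of the deviations of same-numbered samples were 0.30 to 0.43 in the RNA-seq comparisons, from 2 numbers each, and −0.059 to 0.053 in both Ribo-seq comparisons. Between assays they were 0.10 to 0.23 in SCe and 0.018 to 0.037 in *Rptor* fl/fl organoids. As the labels state no pairing, the numbers were not taken as pairs. Whether the RNA-seq samples were paired by number is not known. With a replicate block, 4 genes were called higher and 1 lower in *Rptor* fl/fl against WT RNA-seq, 0 lower in SCe against WT with a median of 0.065 (also the value of *Eef1g*), and 0 higher in *Rptor* fl/fl against SCe RNA-seq (adjusted p = 0.222 for *Eef1a1*, 0.186 for *Eef2* and 0.0867 for *Tpt1*). Over all genes the block called 2359 higher and 2392 lower of 14131 in *Rptor* fl/fl against WT RNA-seq. It called 1753 and 1401 of 14925 in SCe against WT, and 1673 and 1740 of 15103 against SCe in RNA-seq. The block also gave 0.024 for *Hnrnpa1* in organoid footprints and 0.028 for *Pabpc1* in translation efficiency, where over all genes it called 2 higher and 2 lower.

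DESeq2 called 5 higher in *Rptor* fl/fl against WT RNA-seq, 1 higher in SCe against WT, 5 higher and 2 lower in *Rptor* fl/fl against SCe RNA-seq, and 1 higher and 2 lower in translation efficiency. Technical libraries as replicates gave 5 higher and 1 lower, 1 higher, 5 higher and 2 lower, and 1 higher and 2 lower in the same order. Over all genes that setting called 3566 higher and 3642 lower of 13208, and 4395 and 4094 of 13869 in SCe against WT. Against SCe it called 4129 and 4384 of 13971 in RNA-seq, and 542 and 770 of 10713 in translation efficiency. Library totals without TMM gave 2 higher against WT in RNA-seq, 1 lower in translation efficiency, and 2 lower in mice with a median of −0.26. Over all genes library totals called 1899 of 14131 higher against WT, 148 of 10747 lower in translation efficiency and 1062 of 11515 lower in mice. Signs turned for *Eef1b2* in SCe against WT with DESeq2 (−0.0067) and without a filter (−0.017), and without a filter for *Eef1g* in *Rptor* fl/fl against SCe RNA-seq (0.0065) and for *Eef1b2* (0.0084) and *Eef1g* (0.025) in organoid footprints, where added 5′ entries gave 0.0046 for *Eef1g*. They turned in translation efficiency for *Eef1g* (−0.024) and *Npm1* (−0.049) with library totals and *Pabpc1* (0.082) with a length offset, and for *Tpt1* in mice (−0.063) with library totals. The length offset moved *Eef1b2* to −0.68 in organoid footprints.

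Leaving out each line or library in turn gave 0 to 1 higher against WT in RNA-seq, 0 to 1 lower in SCe against WT with a median of −0.074 to 0.090, and 0 to 3 higher and 0 to 1 lower against SCe in RNA-seq. It gave 0 to 1 lower in organoid footprints with a median of −0.14 to 0.16, 0 to 2 lower in translation efficiency and 1 to 5 lower in mice. Members whose sign turned ranged as follows. In *Rptor* fl/fl against WT RNA-seq, *Eef1g* ranged from −0.29 to 0.15 and *Npm1* from −0.23 to 0.031. In SCe against WT, *Eef1b2* ranged from −0.074 to 0.048, *Eef1d* from −0.010 to 0.16 and *Eef1g* from −0.27 to 0.16, and against SCe in RNA-seq *Eef1g* ranged from −0.13 to 0.17. In organoid footprints *Eef1a1* ranged from −0.17 to 0.16, *Eef1b2* from −0.14 to 0.069, *Eef1g* from −0.16 to 0.16 and *Hnrnpa1* from −0.29 to 0.23. In translation efficiency *Eef1g* ranged from −0.12 to 0.22, *Pabpc1* from −0.12 to 0.13 and *Npm1* from −0.083 to 0.17, and in mice *Tpt1* from −0.026 to 0.048. Where this left 1 line in a group, that line was assumed to vary like the other group. The causes were not tested. Over all 657 single-gene values, 548 kept direction and side of the threshold. Depth was lowest in 1 WT mouse library and in SCe footprints, and in simulated data fewer 2-fold changes were recovered in translation efficiency than in the other comparisons.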
